A study of Mus musculus with 12 samples.

Results

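Livers of mice fed a high-fat high-sugar diet with curcumin (HFHSD+CUR) were compared with livers of mice fed normal chow (NCD), and the livers of mice fed the rich diet alone (HFHSD) served as a further point of comparison. The question was which genes that differed on the rich diet were back at the chow level when curcumin was added, and which remained at the rich-diet level or lay still farther from chow. The comparison used 6 of the 12 libraries of the series, 3 of NCD and 3 of HFHSD+CUR, together with the 3 HFHSD libraries for position, and all 12 libraries, those of chow with curcumin (NCD+CUR) included, set the spread of the test. Every group was of aged wild type C57BL/6 males, assigned to 1 of the 4 diets, with curcumin, the yellow phenolic compound of turmeric, mixed into the food at 0.4% by weight where given, for 15 weeks. The labelled age was 99 weeks, except for replicate 3 of NCD and replicate 3 of NCD+CUR at 107 weeks. The series text gives a younger range of ages, so "older" below rests on the sample labels alone. RNA came from the left lateral lobe, so every value is an average over all cells of that lobe. The labels carry replicate numbers but no mouse numbers. Genes averaging 1 FPKM or more (fragments mapped to a gene, scaled to its transcript length and to all mapped fragments) over the 6 libraries were kept, 10584 of the 23997 genes in the table. Capn8, at 0.9997 FPKM, fell just outside that limit, and Ckap4, at 1.00002, just inside.

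The liver handles dietary fat and sugar. Hepatocytes, its main cells, store or export fat as lipoproteins, make glucose, detoxify foreign compounds and the products of protein breakdown, and secrete most plasma proteins through the endoplasmic reticulum (ER). When the load of unfolded protein in the ER grows, sensors in its membrane turn on a set of chaperones and export factors, the unfolded protein response. Interferons, the signalling proteins of antiviral defence, turn on another set of genes in nearly every cell type, among them the genes of antigen presentation. Curcumin itself is conjugated in the liver by UDP-glucuronosyltransferases and sulfotransferases.

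Both of these inducible programs are read from short promoter elements, and in HFHSD+CUR they differed from NCD in opposite directions, so promoter stretches of 4 genes from each are shown. Sequences are from RefSeq on GRCm38.p6 (the assembly of mm10), 60 bases each, 5′ to 3′ on the gene's strand and upstream of the annotated start. Capitals mark matches on either strand to the interferon-stimulated response element, searched as GAAANNGAAA, in the first set and to the ER stress response element, searched as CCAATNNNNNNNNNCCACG, in the second. Overlapping matches are run together.
Isg15, chr4:156200856-156200915, minus strand: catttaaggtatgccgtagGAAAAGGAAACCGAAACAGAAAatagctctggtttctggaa
Oas1a, chr5:120907526-120907585, minus strand: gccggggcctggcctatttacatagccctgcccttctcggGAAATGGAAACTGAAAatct
Gbp3, chr3:142559977-142560036, plus strand: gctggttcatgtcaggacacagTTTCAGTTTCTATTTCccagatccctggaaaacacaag
B2m, chr2:122147523-122147582, plus strand: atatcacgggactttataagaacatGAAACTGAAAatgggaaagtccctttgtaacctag
Hspa5, chr2:34772004-34772063, plus strand: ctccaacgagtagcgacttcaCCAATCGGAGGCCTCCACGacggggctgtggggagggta
Pdia6, chr12:17266470-17266529, plus strand: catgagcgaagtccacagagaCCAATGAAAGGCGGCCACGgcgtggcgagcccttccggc
Dnajc3, chr14:118937806-118937865, plus strand: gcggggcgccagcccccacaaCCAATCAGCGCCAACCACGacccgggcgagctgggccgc
Canx, chr11:50325780-50325839, minus strand: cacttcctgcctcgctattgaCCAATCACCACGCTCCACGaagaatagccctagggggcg
A promoter window of 300 bases (250 before to 50 after the start) was at hand for 8491 of the 10584 tested genes. A gene was counted if any of its windows held a match. Of all 27025 genes with a window, 3.99% held the interferon element letters. So did 16 of the 25 interferon response genes with a window, and 9 of the 15 of these that rose in HFHSD+CUR. Of the antigen presentation genes with a window, which include B2m, 3 of 17 did. Since 8 of the 33 tested interferon genes had no window, these shares were not compared further. The ER stress element letters occurred in 0.137% of the 27025 genes and in 9 of the 27 ER chaperone and unfolded protein response genes with a window. A match describes these letters only.

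In the 12 libraries 10192 to 10721 genes lay above 1 FPKM, and pairs of libraries correlated at 0.933 to 0.986 across genes. FPKM carries no read counts, so counting error per gene was not computed. With each library's mapped reads as a covariate 3066 genes passed between HFHSD+CUR and NCD, beside 3034 without it. Replicate 3 of HFHSD+CUR correlated least with the rest, at a mean of 0.952, and replicate 3 of NCD is the older liver. By mapped reads replicate 3 of NCD also ranked 2 from the deepest library, and replicate 3 of HFHSD ranked 1. Their correlation of 0.980 was the highest of any NCD and HFHSD pair. What sets replicate 3 of NCD apart, in age or in depth, was not tested. Hepatocyte markers summed to 132903 to 144853 FPKM in NCD and 126063 to 140217 in HFHSD+CUR, as the tissue label has it. The list of RNAs that lack a poly(A) tail, which poly(A) selection should remove, summed to 197 to 1611 FPKM in NCD and 342 to 16797 in HFHSD+CUR, led by the ribosomal RNA precursor Rn45s, at 16271, 129 and 3339 FPKM in the HFHSD+CUR livers. Genes that respond to handling of the tissue summed to 104 to 152 and 160 to 172 FPKM in the same groups. The part of either in the results was not tested.

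Against NCD, 1497 genes were higher in HFHSD+CUR (14.1% of those tested) and 1537 were lower (14.5%) at an adjusted p under 0.1, 218 and 155 of them by at least 2-fold. The values of the 2 groups did not overlap for 3499 genes (33.1%). The rich diet alone gave fewer calls against the same NCD livers, 294 higher (2.78%) and 205 lower (1.94%), with 2412 genes without overlap (22.8%). Against HFHSD, 1415 genes were higher in HFHSD+CUR (13.4%) and 1814 lower (17.1%). The counts of each gene list below are to be read beside these shares. The median difference from NCD over all tested genes was -0.00087 for HFHSD+CUR and 0.03 for HFHSD on the log2 scale. The 3 comparisons share livers, so their counts are not independent. The count of 3034 genes for HFHSD+CUR against NCD became 1324 without replicate 1 of NCD and 1712 without replicate 3 of HFHSD+CUR, and the count of 499 for the diet alone ran from 55 without replicate 1 of NCD and 59 without replicate 2 to 1754 without replicate 3 of NCD, the older liver. Against HFHSD the 3229 calls became 1237 without replicate 3 of HFHSD+CUR, 1749 without replicate 3 of HFHSD and 2111 without its replicate 2.

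The 499 genes called between HFHSD and NCD are the diet-changed genes below. Each was placed on a scale on which 0 is the NCD mean and 1 the HFHSD mean, and its position in HFHSD+CUR is the log2 difference from NCD divided by that of HFHSD. By this scale 90 genes (18.0%) had returned to the chow level (position -0.25 to 0.25), 13 (2.61%) lay beyond it, 216 (43.3%) lay between the diets, 140 (28.1%) remained within 0.25 of the rich-diet mean and 40 (8.02%) had moved further. The median position was 0.63. The genes were chosen for a difference between HFHSD and NCD in the same livers that set the scale, so a position under 1, held by 403 genes, is not by itself a return. When the diet-changed genes were chosen anew, the returned share was 1.82% without replicate 1 of NCD, 3.39% without its replicate 2, and 9.52% and 7.03% without replicates 2 and 3 of HFHSD, while the remained share was 47.3%, 44.1% and 43.8% without the first 3 of these livers.

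The tests divided the diet-changed genes less evenly. In 267 (53.5%) HFHSD+CUR still differed from NCD in the direction of the diet, and in 163 (32.7%) it differed from HFHSD towards NCD. A further 81 genes passed against neither group. When the diet-changed genes were chosen anew, the first share was 86.4% without replicate 2 of NCD and 84.8% without replicate 2 of HFHSD, and the other was 19% and 15.7% without replicates 2 and 3 of HFHSD and 13.3% without replicate 3 of HFHSD+CUR. All 90 genes in the returned class and all 13 beyond NCD differed from HFHSD, 1 of the 13 also passed the test against NCD (Cuedc1, which was lower on the diet and higher than chow with curcumin), and all 140 in the remained class and all 40 in the further class differed from NCD. The class limits nearly fix these full counts, since a gene near one diet mean lies far from the other, so they lend the classes no support. The same holds below for tests against HFHSD of single genes that returned or lay beyond chow. It also holds for tests against NCD of single diet-changed genes that remained or moved further. Of the 216 between, 87 differed from NCD and 60 from HFHSD. When the rich-diet livers were blocked by replicate number, the number differing from HFHSD was 115 of the 216 between, 20 in place of 9 of the 40 that had moved further, and 5 in place of 0 of the 140 that remained.

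**Figure D1:**
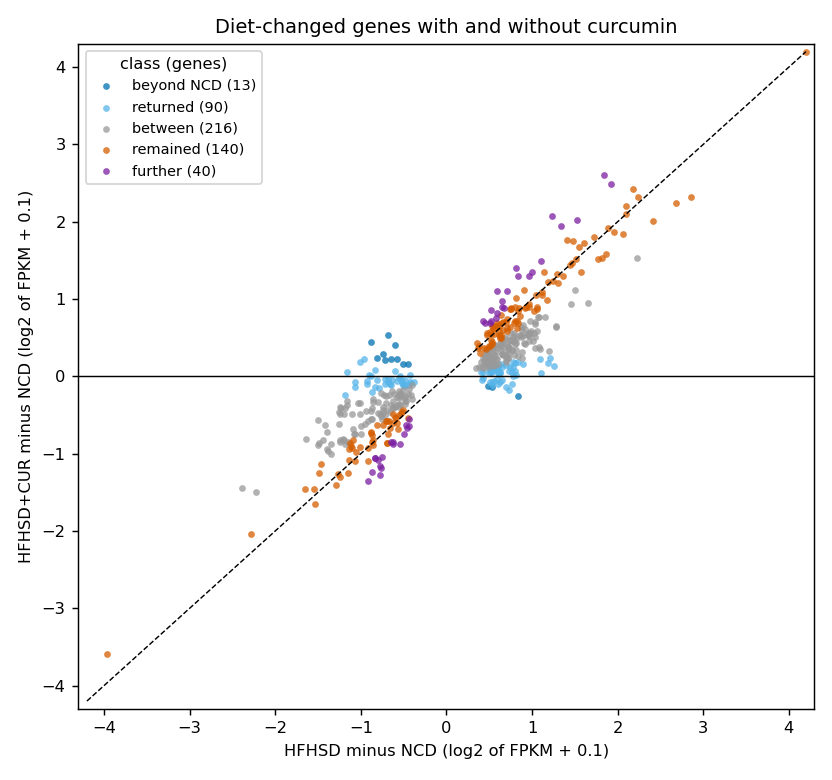
Log2 difference from NCD of each of the 499 diet-changed genes in HFHSD (horizontal axis) and in HFHSD+CUR (vertical axis), both on log2(FPKM + 0.1), coloured by class; the dashed diagonal marks the same difference with and without curcumin and the horizontal line the NCD level. The 140 genes that remained lie along the diagonal, the 90 that returned along the horizontal line, and 1 gene beyond 4.2 is drawn at the edge.

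Livers differed in where they stood. The median position of the 499 genes was 0.75, 0.68 and 0.45 in replicates 1, 2 and 3 of HFHSD+CUR, and 0.99, 1.02 and 0.99 in HFHSD. In NCD it was -0.05, -0.18 and 0.25, the last in the older liver. By this median, replicate 3 was the HFHSD+CUR liver nearest to chow. Over all tested genes it correlated least with the NCD livers, at 0.933, 0.949 and 0.936. Those correlations were 0.946 to 0.959 for replicate 1 and 0.960 to 0.969 for replicate 2. Without replicate 3 of HFHSD+CUR, 68 of the same 499 genes lay in the returned class and 183 in the remained class, with 40 further. Without replicate 1 these counts were 109, 133 and 36, and without replicate 2 they were 96, 128 and 48. The NCD+CUR livers, which had no rich diet, lay at -0.20, -0.19 and 0.03.

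**Figure D2:**
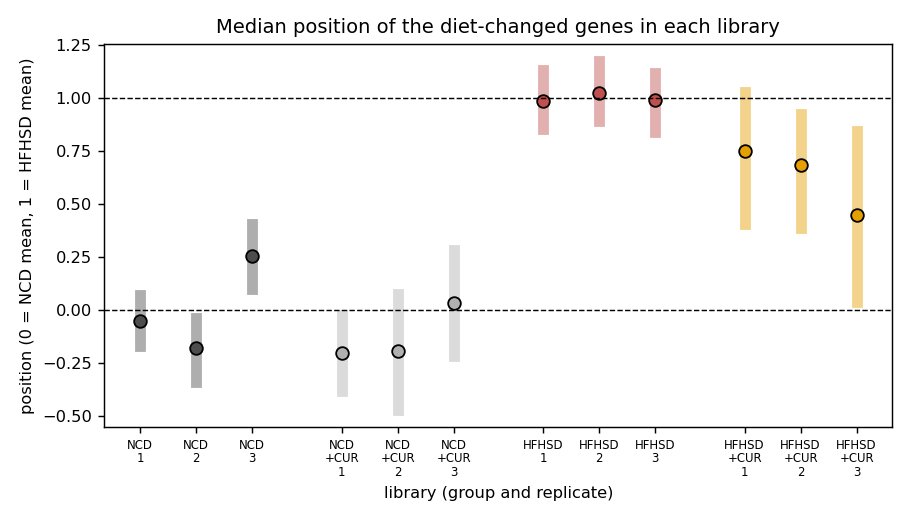
Median position (points) and middle range from the 25th to the 75th percentile (bars) of the 499 diet-changed genes in each of the 12 libraries, where 0 is the NCD mean and 1 the HFHSD mean. The 3 HFHSD+CUR livers stand at 0.75, 0.68 and 0.45, between the groups that define the scale, with replicate 3 lowest.

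The genes described first are members of the remained class. Tsku (tsukushi, a secreted protein made by hepatocytes; GRCm38.p6 chr7:98350668-98361390) had 13.4, 8.41 and 9.94 FPKM in NCD, 33.7, 52.6 and 32.5 in HFHSD, and 42.0, 37.0 and 39.4 in HFHSD+CUR. Every liver on the rich diet, with or without curcumin, lay above every chow liver, and Tsku rose by 1.91 ± 0.20 (SE, n = 3 per group) on the log2 scale in HFHSD+CUR over NCD (adjusted p = 0.0025) against 1.89 ± 0.20 in HFHSD. Orm3, an orosomucoid of the acute phase, had 5.79, 7.23 and 3.53 FPKM in NCD and 21.9, 20.7 and 33.2 in HFHSD+CUR. It rose by 2.202 ± 0.32 (adjusted p = 0.0035) with no overlap, and by 2.09 in HFHSD. Cish, a feedback inhibitor of growth hormone and cytokine receptors, stood at 3.71, 3.60 and 4.30 FPKM in NCD and at 16.8, 8.37 and 9.07 in HFHSD+CUR. Replicate 1 was the highest on both rich diets, and the rise of 1.47 ± 0.27 (adjusted p = 0.0059) stood beside 1.47 in HFHSD alone.

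The efflux pumps and detoxifying enzymes among the remaining genes behaved alike. Abcc3, a pump of conjugated bile acids and drugs towards the blood, had 10.5, 10.3 and 16.9 FPKM in NCD, 39.2, 39.9 and 31.7 in HFHSD and 37.5, 30.4 and 26.9 in HFHSD+CUR, a rise of 1.35 ± 0.20 over NCD (adjusted p = 0.0035). Abcg2, a drug pump of the bile canaliculus, rose by 0.63 ± 0.13 (adjusted p = 0.0082), from 16.8, 17.2 and 21.9 FPKM to 28.7, 27.4 and 29.98. Cyp1a2, a cytochrome P450 that oxidises caffeine and other aromatic compounds, had 127, 109 and 139 FPKM in NCD and 317, 209 and 180 in HFHSD+CUR and rose by 0.87 ± 0.20 (adjusted p = 0.013). In all of these genes each HFHSD+CUR liver lay above each NCD liver. Cyp2a5, an inducible P450 whose paralog Cyp2a4 may share its reads, had 225, 216 and 384 FPKM in NCD and 1360, 671 and 734 in HFHSD+CUR, and rose by 1.72 ± 0.37 (adjusted p = 0.013). Lrat, which esterifies vitamin A in hepatic stellate cells, fell by 0.94 ± 0.22 (adjusted p = 0.014), from 4.98, 4.87 and 3.58 FPKM to 1.74, 2.44 and 2.69. Of 14 stellate cell and collagen markers 4 fell and 0 rose, and their sum was 107 to 153 FPKM in NCD and 57.2 to 104 in HFHSD+CUR.

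Of the 22 cytochrome P450 genes of families 1 to 3 that were tested, 7 rose and 2 fell in HFHSD+CUR against NCD, with a median difference of 0.33 on the log2 scale beside -0.00087 over all genes. In HFHSD 7 rose and 0 fell (median 0.55). Among those 7 diet-changed genes 2 returned, 3 lay between and 2 remained. The count of 7 in HFHSD+CUR was 2 without replicate 2 of NCD, without replicate 1 of HFHSD+CUR or without its replicate 3, and 3 without replicate 1 of NCD, while the count of 7 in HFHSD was 3, 1 and 12 without replicates 1, 2 and 3 of NCD and 3 and 4 without replicates 1 and 2 of HFHSD.

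Interferon response genes are described next. Of 33 tested members 20 rose and 0 fell in HFHSD+CUR against NCD, with a median difference of 0.69 on the log2 scale, and 9 rose and 0 fell in HFHSD, with a median of 0.70. Among the 9 diet-changed members 6 remained, 3 lay between and 0 returned, and 32 of the 33 had a higher mean in HFHSD+CUR than in NCD on the log2 scale. Oas1a, an antiviral nucleotide polymerase, had 1.61, 2.70 and 2.24 FPKM in NCD, 15.7, 8.09 and 6.21 in HFHSD and 15.7, 7.41 and 4.22 in HFHSD+CUR, a rise of 1.84 ± 0.45 (adjusted p = 0.021). Gbp3, an interferon-inducible GTPase, had 3.52, 4.195 and 4.04 FPKM in NCD and 22.8, 13.6 and 8.66 in HFHSD+CUR and rose by 1.80 ± 0.36 (adjusted p = 0.0095). Irf7, the transcription factor that amplifies the interferon response, had 34.6, 31.1 and 30.9 FPKM in NCD and 149, 102 and 51.6 in HFHSD+CUR and rose by 1.52 ± 0.36 (adjusted p = 0.018).

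Within HFHSD+CUR the interferon genes were uneven. Replicate 1 was the highest and replicate 3 the lowest for Oas1a, Gbp3 and Irf7, and the same numbers held those places in HFHSD, while the NCD livers differed little. Isg15, a ubiquitin-like modifier, showed the widest spread, with 115, 56.2 and 22.9 FPKM in HFHSD+CUR against 15.7, 21.7 and 17.5 in NCD. Its difference of 1.54 ± 0.56 passed at an adjusted p of 0.086 and lost the call without replicate 2 of HFHSD (adjusted p = 0.11), without any single NCD liver (0.11 to 0.22), without replicate 1 of HFHSD+CUR (0.20) or without its replicate 2 (0.15). The list itself gave 8 calls without replicate 1 of NCD or without replicate 1 of HFHSD+CUR, 12 without replicate 3 of NCD and 13 without replicate 2 of NCD. Its 9 calls in HFHSD were 0 without replicate 1 or 2 of NCD or replicate 1 of HFHSD, 1 without replicate 2 of HFHSD and 15 without replicate 3 of HFHSD+CUR. Summed over the list, the range was 674 to 745 FPKM in NCD and 923 to 2056 in HFHSD+CUR. Markers of Kupffer cells and macrophages, of which 0 of 13 tested passed in limma (0 at an unadjusted p under 0.05), summed to 240 to 623 FPKM in NCD and 306 to 530 in HFHSD+CUR, and the B cell markers to 6.90 to 8.70 and 10.3 to 11.7. Of 3 B cell markers tested 0 passed against NCD. All 3 were higher in HFHSD+CUR than in HFHSD, where the list summed to 3.33 to 8.36 FPKM. The part of these cell types was not tested.

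Against HFHSD 2 of the 33 interferon genes were higher in HFHSD+CUR (Stat2 and Irf8) and 3 were lower (Ifih1, Irgm2 and Gbp2). Stat2, a subunit of the factor that binds the element printed for Isg15 and Oas1a, was 18.4, 19.1 and 15.7 FPKM in NCD, 16.7, 17.3 and 15.9 in HFHSD and 26.2, 25.1 and 33.0 in HFHSD+CUR. Here the HFHSD+CUR livers alone stood apart, and Stat2 rose by 0.66 ± 0.14 over NCD (adjusted p = 0.0081) and by 0.74 over HFHSD (adjusted p = 0.0089). Xaf1, an interferon-inducible inhibitor of apoptosis inhibitors, had 3.32, 4.09 and 3.62 FPKM in NCD, 9.40, 7.05 and 4.16 in HFHSD and 13.6, 8.94 and 7.26 in HFHSD+CUR. It rose by 1.36 ± 0.27 over NCD (adjusted p = 0.0074), and its difference of 0.55 from HFHSD passed with the replicate block (adjusted p = 0.016) and not without it (0.16).

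Antigen presentation genes followed the same side. Of 21 tested, 15 rose and 0 fell in HFHSD+CUR (median 0.69), and 6 rose and 0 fell in HFHSD (median 0.33). Of those 6, 4 remained and 2 moved further, and 3 of the 21 were also higher in HFHSD+CUR than in HFHSD. B2m, the light chain of MHC class I, had 2056, 2249 and 1773 FPKM in NCD and 3312, 3646 and 3140 in HFHSD+CUR and rose by 0.74 ± 0.15 (adjusted p = 0.0086). H2-K1, a class I heavy chain, had 667, 854 and 913 FPKM in NCD and 1809, 1500 and 1254 in HFHSD+CUR and rose by 0.90 ± 0.17 (adjusted p = 0.0052). Its near-identical relatives may share reads. H2-Q4, one of these relatives, stood at 41.8, 59.3 and 54.0 FPKM in NCD, 82.5, 61.3 and 67.6 in HFHSD and 128, 89.9 and 108 in HFHSD+CUR. Every HFHSD+CUR value of H2-Q4 lay above every other, with a rise of 1.07 ± 0.18 over NCD (adjusted p = 0.0043) and 0.62 over HFHSD (adjusted p = 0.033). The 15 calls were 11 to 18 when single libraries were left out, while the 6 calls in HFHSD were 0 without replicate 1 of NCD, 3 without its replicate 2, and 1, 2 and 3 without replicates 1, 2 and 3 of HFHSD.

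**Figure D3:**
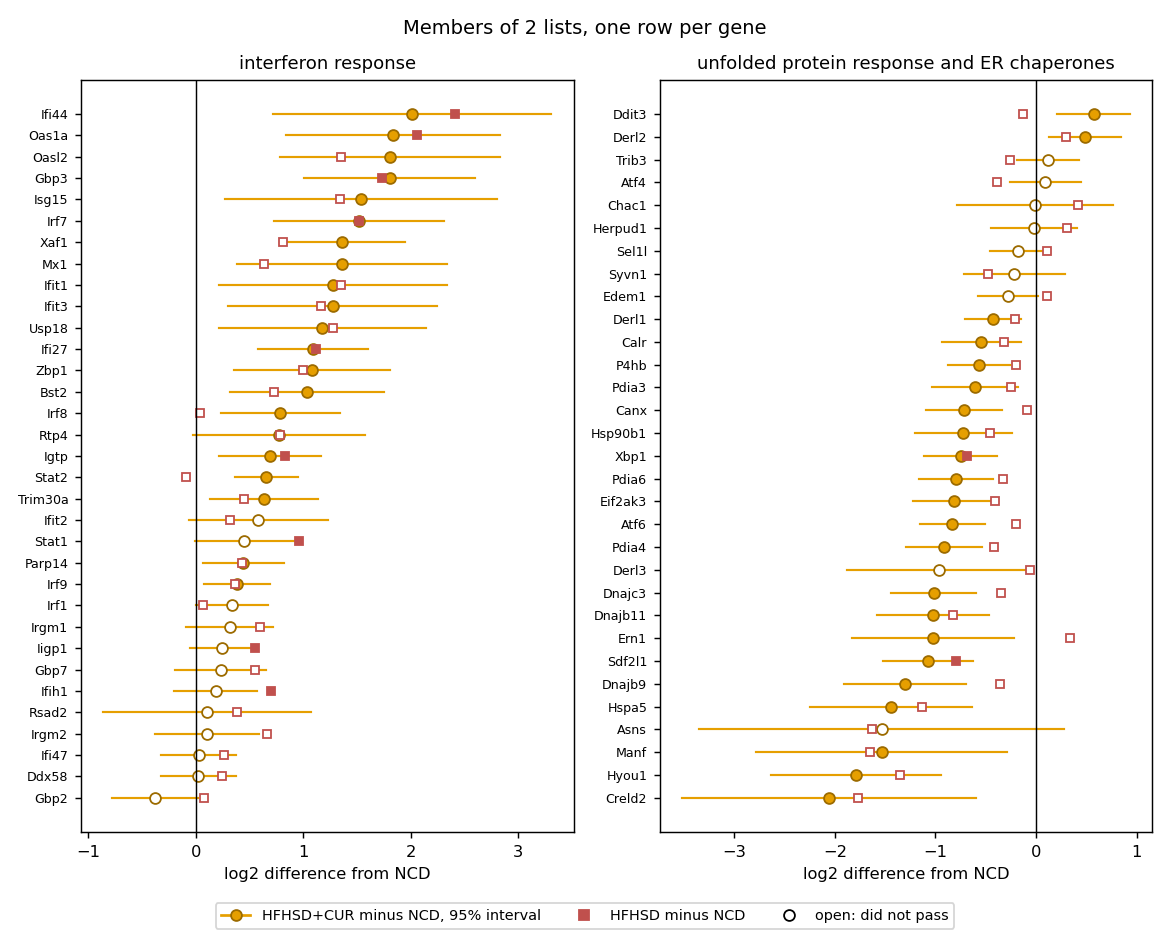
Log2 difference from NCD of each tested interferon response gene (left) and each ER chaperone or unfolded protein response gene (right): circles with 95% intervals for HFHSD+CUR, squares for HFHSD, filled where the adjusted p was under 0.1. All interferon genes except Gbp2 lie right of 0 in HFHSD+CUR, with 20 of 33 called, while 20 of the 31 ER genes are called lower in HFHSD+CUR and 2 in HFHSD.

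Among the 40 genes that moved further from chow were parts of the immunoproteasome, the form of the proteasome that cuts peptides for antigen presentation. Psmb9, one of its catalytic subunits, had 22.8, 30.8 and 29.5 FPKM in NCD, 48.7, 39.9 and 47.0 in HFHSD and 64.8, 59.1 and 54.0 in HFHSD+CUR. The groups stepped up without overlap, the rise over NCD being 1.10 ± 0.15 (adjusted p = 0.0031) and that over HFHSD 0.39 ± 0.15 (adjusted p = 0.080). Psmb8, another catalytic subunit, rose by 0.90 ± 0.16 over NCD (adjusted p = 0.00445), with 38.3, 45.1 and 38.7 FPKM in NCD and 95.3, 63.6 and 71.2 in HFHSD+CUR, and did not pass against HFHSD (adjusted p = 0.26). Gbp11, an interferon-inducible GTPase, went from 2.50, 2.74 and 2.35 FPKM in NCD to 26.8, 9.98 and 15.02 in HFHSD+CUR, a rise of 2.61 ± 0.40 (adjusted p = 0.0044). It had 17.5, 8.32 and 5.57 FPKM in HFHSD, overlapping HFHSD+CUR, and passed against HFHSD with the replicate block and not without it (adjusted p = 0.033).

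The other genes that moved further were mixed in function. Epas1 (HIF-2 alpha, a sensor factor of low oxygen; GRCm38.p6 chr17:86753864-86833410) had 81.4, 70.8 and 83.2 FPKM in NCD, 35.4, 41.9 and 53.4 in HFHSD and 30.7, 37.1 and 32.3 in HFHSD+CUR. It fell by 1.23 ± 0.15 against NCD (adjusted p = 0.0027) and by 0.37 against HFHSD (adjusted p = 0.094), although the ranges of the rich-diet groups overlapped. Plk3, a kinase of stress and cell cycle checkpoints, had 6.96, 12.7 and 7.76 FPKM in NCD, 21.8, 21.1 and 24.8 in HFHSD and 35.8, 27.7 and 40.9 in HFHSD+CUR. No group overlapped another, and Plk3 rose by 1.95 ± 0.23 over NCD (adjusted p = 0.0027) and by 0.61 over HFHSD (adjusted p = 0.076). Ccrn4l (nocturnin), a rhythmic phosphatase of the clock output, had 31.0, 23.7 and 27.7 FPKM in NCD and 71.8, 57.4 and 112 in HFHSD+CUR and rose by 1.497 ± 0.20 (adjusted p = 0.0031). Its difference of 0.39 from HFHSD did not pass (adjusted p = 0.18). Cipc, a negative regulator of the CLOCK protein, had 6.36, 5.29 and 6.403 FPKM in NCD, 10.03, 10.9 and 10.99 in HFHSD and 15.5, 12.5 and 21.1 in HFHSD+CUR. Its groups were separate, with a rise of 1.40 ± 0.16 over NCD (adjusted p = 0.0027) and 0.58 over HFHSD (adjusted p = 0.027).

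Sult5a1, a sulfotransferase, had 3.65, 4.91 and 2.52 FPKM in NCD, 12.5, 13.7 and 15.2 in HFHSD and 20.8, 17.7 and 23.5 in HFHSD+CUR. Its values stepped up without overlap, by 2.49 ± 0.35 over NCD (adjusted p = 0.0035), and its difference of 0.58 from HFHSD passed with the replicate block (adjusted p = 0.011) and not without it (0.26). Rpl3, a protein of the large ribosomal subunit, fell by 0.85 ± 0.15 (adjusted p = 0.0048), from 365, 390 and 340 FPKM to 231, 210 and 170. Its difference of -0.23 from HFHSD did not pass (adjusted p = 0.29). AW549542, a transcript with no assigned function, rose by 2.07 ± 0.30 over NCD (adjusted p = 0.0035), from 2.69, 2.93 and 3.91 FPKM to 16.8, 10.2 and 14.4, and by 0.84 over HFHSD (adjusted p = 0.070). With Plk3, Cipc, Epas1 and Psmb9, AW549542 was among the 9 diet-changed genes that differed from HFHSD away from chow. The others were Exosc6, Gm10768, Odc1 and Phyhd1.

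The fibrinogen chains, the clotting protein that hepatocytes secrete in bulk, stepped down. Fgb (beta chain; GRCm38.p6 chr3:83042246-83049863) had 6275, 6090 and 4997 FPKM in NCD, 2708, 3843 and 3651 in HFHSD and 1909, 3482 and 2018 in HFHSD+CUR, a fall of 1.28 ± 0.21 against NCD (adjusted p = 0.0042). Fgg (gamma chain) had 4952, 4943 and 3858 FPKM in NCD and 1823, 2716 and 1730 in HFHSD+CUR, a fall of 1.15 ± 0.20 (adjusted p = 0.0043). Both chains lay below every NCD value on both rich diets, and both passed against HFHSD with the replicate block and not without it (adjusted p = 0.030 for Fgb and 0.067 for Fgg). Fga (alpha chain) was not called in HFHSD, and had 3816, 2842 and 2675 FPKM in NCD, 1407, 2100 and 2250 in HFHSD and 798, 1408 and 635 in HFHSD+CUR. Replicate 2 was the highest HFHSD+CUR liver for all 3 chains, and Fga fell by 1.78 ± 0.28 against NCD (adjusted p = 0.0042) and by 1.07 against HFHSD (adjusted p = 0.025).

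Of the 36 tested complement and coagulation genes 3 rose and 10 fell in HFHSD+CUR, and the diet alone raised 4 and lowered 2. The 6 diet-changed members split, with 1 returned, 2 beyond chow, 1 between and 2 further. C9, the pore-forming component of complement, was one of those beyond chow. It had 132, 99.7 and 193 FPKM in NCD, 198, 251 and 289 in HFHSD and 111, 135 and 99.1 in HFHSD+CUR, so that the HFHSD livers alone stood apart. C9 fell by 1.09 ± 0.23 against HFHSD (adjusted p = 0.012), and its difference of -0.26 from NCD did not pass (adjusted p = 0.46). Masp1, a protease that starts the lectin pathway of complement, was not among the diet-changed genes. The 3 calls of higher genes in HFHSD+CUR were 0 without replicate 1 of NCD, replicates 1 or 2 of HFHSD, or replicates 1 or 3 of HFHSD+CUR, and 1 without replicate 3 of HFHSD or replicate 2 of HFHSD+CUR. The 4 higher and 2 lower calls of the diet were both 0 without replicates 1 or 2 of NCD or replicates 2 or 3 of HFHSD, were 1 and 0 without replicate 1 of HFHSD and 2 and 2 without replicate 1 of HFHSD+CUR, and the 4 were 11 without replicate 3 of NCD.

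**Figure D4:**
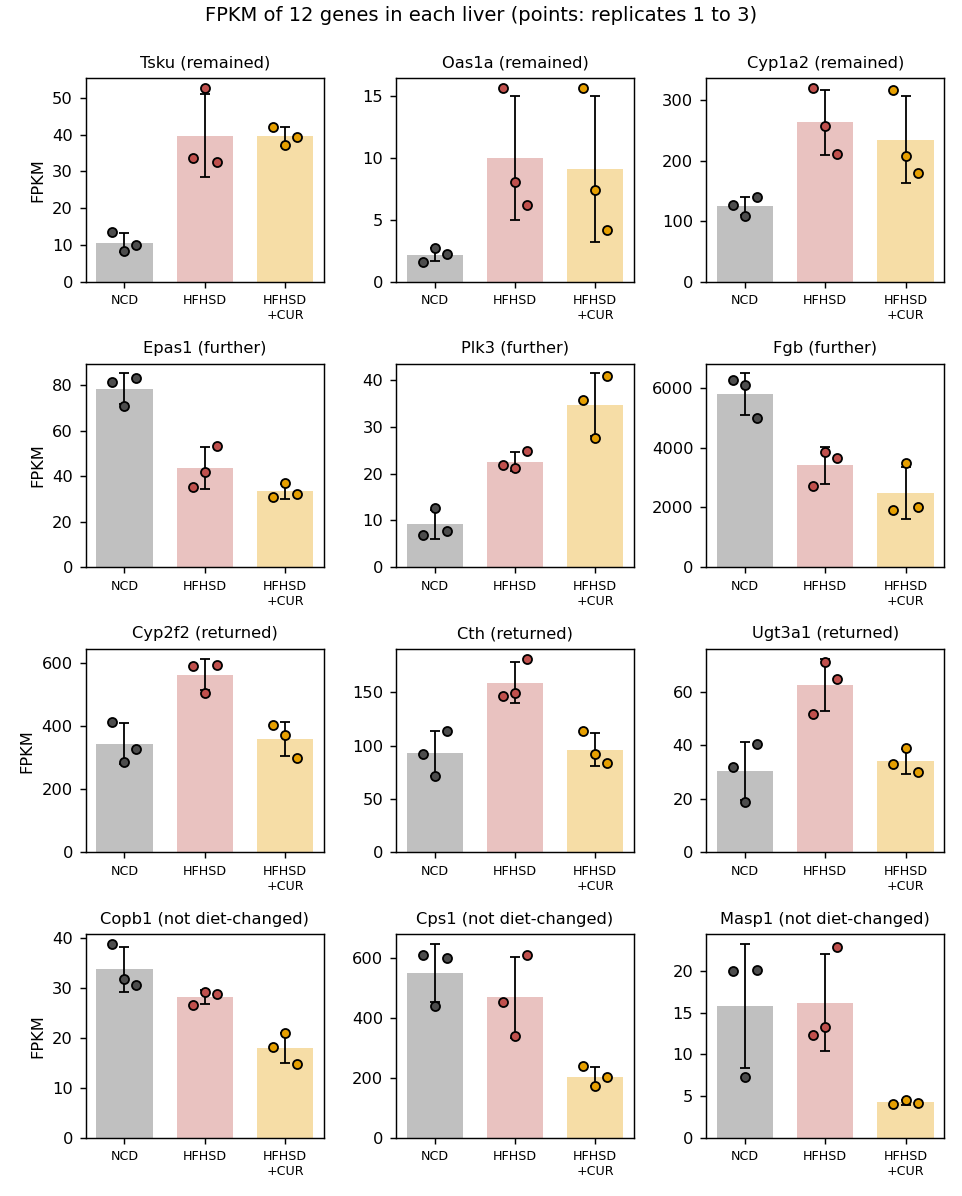
FPKM of 12 genes in each liver of NCD, HFHSD and HFHSD+CUR: points are replicates 1 to 3 from left to right, bars the means and whiskers the SD. Top to bottom, the rows show genes that remained (Oas1a at 15.7 FPKM in replicate 1 of both rich diets), moved further, returned (Cth near its chow level), and fell in HFHSD+CUR without being diet-changed (Masp1 at 4.02 to 4.57).

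Among the 90 genes that returned were several enzymes of detoxification and amino acid use. Cyp2f2, a P450 of periportal hepatocytes, had 414, 287 and 328 FPKM in NCD, 590, 505 and 594 in HFHSD and 403, 372 and 298 in HFHSD+CUR. The HFHSD livers lay above all others, Cyp2f2 fell by 0.66 ± 0.15 against HFHSD (adjusted p = 0.015), and it differed by 0.07 ± 0.15 from NCD. Cth, which makes cysteine from cystathionine, had 92.4, 71.9 and 114 FPKM in NCD, 147, 149 and 181 in HFHSD and 113, 91.9 and 83.8 in HFHSD+CUR. It fell by 0.73 ± 0.17 against HFHSD (adjusted p = 0.015), and the curcumin livers overlapped those on chow. Ugt3a1, a glycosyltransferase of the UGT family, had 31.9, 18.9 and 40.6 FPKM in NCD, 51.8, 71.1 and 64.7 in HFHSD and 33.1, 39.2 and 29.9 in HFHSD+CUR, a fall of 0.87 ± 0.23 against HFHSD (adjusted p = 0.023).

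The other returned genes included a chaperone and proteins of cell contacts. Hsph1, a cytosolic heat shock chaperone, had 4.46, 3.94 and 4.66 FPKM in NCD, 6.38, 6.48 and 7.07 in HFHSD and 4.41, 5.36 and 4.18 in HFHSD+CUR, a fall of 0.51 ± 0.13 against HFHSD (adjusted p = 0.018). The desmosomal cadherins Dsg1c and Dsc2 moved together. Dsg1c had 3.58, 2.34 and 4.63 FPKM in NCD, 7.25, 7.41 and 8.96 in HFHSD and 3.31, 4.59 and 3.74 in HFHSD+CUR. Dsc2 had 8.28, 6.68 and 10.9 FPKM in NCD, 14.05, 14.1 and 15.5 in HFHSD and 9.34, 8.87 and 7.23 in HFHSD+CUR. For both, HFHSD lay above all other livers and the fall against HFHSD passed (1.01 ± 0.23 for Dsg1c, adjusted p = 0.015; 0.78 ± 0.16 for Dsc2, adjusted p = 0.012). Without replicate 3 of HFHSD+CUR, 55 of the 90 returned genes were still in that class.

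Beyond chow lay 13 genes, a class that held 2 of the 499 genes without replicate 3 of HFHSD+CUR and 25 without its replicate 2. With diet-changed genes chosen anew its share was 0% without replicates 1 or 2 of NCD or replicates 2 or 3 of HFHSD, 1.64% without replicate 1 of HFHSD and 5.99% without replicate 3 of NCD. Nrbp2, a pseudokinase, had 50.1, 54.7 and 40.9 FPKM in NCD, 30.8, 28.8 and 33.0 in HFHSD and 51.4, 48.1 and 73.2 in HFHSD+CUR, a rise of 0.88 ± 0.17 against HFHSD (adjusted p = 0.0098). Cyb5r1, a cytochrome b5 reductase, rose by 0.67 ± 0.13 against HFHSD (adjusted p = 0.0098), with 6.88, 6.61 and 6.89 FPKM in NCD, 5.41, 4.90 and 4.03 in HFHSD and 7.78, 6.80 and 8.40 in HFHSD+CUR. Arfip2, a membrane-curving protein of the Golgi, rose by 0.81 ± 0.16 against HFHSD (adjusted p = 0.011). Prkacb, a catalytic subunit of protein kinase A, fell by 0.61 ± 0.14 against HFHSD (adjusted p = 0.013), from 11.9, 13.02 and 12.8 FPKM to 8.23, 9.82 and 6.80, with 9.76, 7.97 and 9.18 in NCD. None of these 4 genes passed against NCD, and their ranges in HFHSD+CUR and NCD overlapped.

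UDP-glucuronosyltransferases, the enzymes that conjugate curcumin, bilirubin and steroids, differed on the rich diet and little between HFHSD+CUR and NCD. Of 16 tested, 5 rose and 0 fell in HFHSD (median 0.77 on the log2 scale), while 2 rose and 2 fell in HFHSD+CUR against NCD (median 0.04). These 2 rises and 2 falls were near the shares over all tested genes, 14.1% higher and 14.5% lower. Against HFHSD, 10 of the 16 were lower with curcumin and 1 was higher. Of the 5 diet-changed members 3 returned and 2 lay between. The higher one was Ugt1a6b, which shares its last exons with the other Ugt1a genes and had 101, 140 and 135 FPKM in NCD, 175, 162 and 171 in HFHSD and 319, 226 and 303 in HFHSD+CUR. Its HFHSD+CUR values lay above all others, 1.17 ± 0.16 over NCD (adjusted p = 0.0031) and 0.72 over HFHSD (adjusted p = 0.013). The 5 diet calls were 0 without replicates 1 or 2 of NCD or replicate 2 of HFHSD, 2 without replicates 1 or 3 of HFHSD, and 11 without replicate 3 of NCD. The 2 rises and 2 falls were each between 1 and 4 without single libraries.

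Enzymes of the urea cycle and of amino acid breakdown gave a similar picture, with 5 of 36 higher and 0 lower in HFHSD (3 returned and 2 between), and 4 higher and 4 lower in HFHSD+CUR against NCD. These 4 rises and 4 falls were near the shares over all tested genes, 14.1% higher and 14.5% lower. Against HFHSD 11 of the 36 were lower in HFHSD+CUR and 1 was higher. The 5 diet calls were 0 without replicates 1 or 2 of NCD or replicate 3 of HFHSD, 1 without replicates 1 or 2 of HFHSD, and 14 without replicate 3 of NCD. The 4 rises in HFHSD+CUR were 1 without replicate 1 of NCD or of HFHSD+CUR, 2 without replicate 2 of NCD or replicate 3 of HFHSD+CUR and 6 without replicate 3 of NCD, and the 4 falls were 7 without replicate 1 of HFHSD+CUR. Cytosolic ribosomal proteins, many of which have processed pseudogenes that can share reads, showed the reverse. Of 72 tested, 0 were higher and 19 lower in HFHSD (median -0.43), and 1 was higher and 7 lower in HFHSD+CUR against NCD (median -0.08). The latter counts lay below the shares over all tested genes. Against HFHSD 42 were higher in HFHSD+CUR. Of the 19, 9 returned, 7 lay between, 2 remained and 1, Rpl3, moved further. The summed level was 33063 to 45948 FPKM in NCD, 27440 to 27728 in HFHSD and 34816 to 37831 in HFHSD+CUR. The 19 diet calls were 0 without replicates 1 or 2 of NCD or replicates 1 or 2 of HFHSD, 6 without its replicate 3, and 58 without replicate 3 of NCD, and the 1 rise in HFHSD+CUR was 7 without replicate 2 of NCD and 6 without replicate 2 of HFHSD+CUR. The 7 falls became 32 once trends with GC content and length were removed.

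The largest class, the 216 genes between the diets, included a lysosomal transporter and a fatty acid receptor. Slc46a3, the transporter, had 20.7, 16.6 and 18.0 FPKM in NCD, 28.5, 31.1 and 37.8 in HFHSD and 25.9, 27.4 and 23.6 in HFHSD+CUR. The 3 groups were separate, and Slc46a3 passed against both, by 0.48 ± 0.13 over NCD (adjusted p = 0.0231) and by -0.33 ± 0.13 against HFHSD (adjusted p = 0.0829). Of all diet-changed genes 22 passed against both, among them Cuedc1 and the 9 that differed from HFHSD away from chow. Cd36, the fatty acid uptake receptor, had 5.70, 7.49 and 10.1 FPKM in NCD, 22.1, 25.1 and 18.4 in HFHSD and 16.7, 19.4 and 13.8 in HFHSD+CUR. It rose by 1.11 ± 0.26 over NCD (adjusted p = 0.014), at a position of 0.74, and passed against HFHSD with the replicate block (adjusted p = 0.027) and not without it (0.29).

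Prss8, a membrane serine protease, fell by 0.82 ± 0.19 (adjusted p = 0.013), from 12.96, 17.8 and 14.3 FPKM to 8.99, 8.90 and 7.404, and had 6.89, 4.67 and 8.28 in HFHSD. Fgf21, a hormone of the liver, had 7.01, 11.8 and 7.01 FPKM in NCD, 0.895, 2.82 and 1.35 in HFHSD and 1.70, 9.38 and 1.63 in HFHSD+CUR. Replicate 2 alone stood near the chow livers, and the difference of -1.45 ± 0.64 from NCD did not pass (adjusted p = 0.14). Its difference of 0.94 from HFHSD passed with the replicate block (adjusted p = 0.029) and not without it (0.32). Car3, a carbonic anhydrase of liver and fat, had 790, 682 and 909 FPKM in NCD, 1311, 2288 and 1807 in HFHSD and 1072, 1836 and 1238 in HFHSD+CUR, and rose by 0.77 ± 0.22 over NCD (adjusted p = 0.032). It passed against HFHSD with the replicate block and not without it (adjusted p = 0.0314). Adipsin (Cfd), a protease of fat cells, was at 0, 0.131 and 0.569 FPKM in NCD and 5.76, 45.6 and 40.1 in HFHSD+CUR and passed (adjusted p = 0.021), with 1.38, 57.4 and 16.5 in HFHSD. Of the 8 adipocyte markers in the table, among them Car3 and Cfd, 3 to 4 were at 0 in NCD and 2 to 4 in HFHSD+CUR, and their part was not tested.

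Markers of sinusoidal and vascular endothelium also lay between. Of 14 tested, 0 were higher and 7 lower in HFHSD+CUR (median -0.77 on the log2 scale), and 8 were lower in HFHSD (median -1.07), of which 6 lay between, 1 returned and 1 remained. In such bulk samples fewer cells of a type and less RNA per cell cannot be told apart. Pecam1, an adhesion protein of endothelial junctions, had 4.17, 4.36 and 3.34 FPKM in NCD, 1.00, 1.62 and 1.41 in HFHSD and 1.37, 1.69 and 3.78 in HFHSD+CUR. Kdr, the main VEGF receptor, had 3.25, 3.09 and 4.33 FPKM in NCD, 1.06, 1.41 and 1.26 in HFHSD and 1.47, 1.48 and 3.35 in HFHSD+CUR. For both, replicate 3 stood at the chow level and the other livers near HFHSD, so the groups overlapped. The difference from NCD was -0.89 ± 0.31 for Pecam1 (adjusted p = 0.064) and -0.82 ± 0.27 for Kdr (adjusted p = 0.048). Against HFHSD both passed with the replicate block and not without it (adjusted p = 0.0909 for Pecam1 and 0.0899 for Kdr).

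Stab1, a scavenger receptor of sinusoidal endothelium, was in the returned class with 6.38, 6.34 and 4.75 FPKM in NCD, 2.35, 2.96 and 3.23 in HFHSD and 5.32, 5.06 and 10.5 in HFHSD+CUR. It rose by 1.19 ± 0.24 against HFHSD (adjusted p = 0.012), again with replicate 3 the highest. The summed level of the endothelial markers was 107 to 120 FPKM in NCD, 50.8 to 73.9 in HFHSD and 68.5 to 134 in HFHSD+CUR, and in 0 of the 14 genes were HFHSD+CUR and NCD without overlap. Among all tested genes 33.1% were without overlap between these groups. The 7 calls were 0 without replicate 1 of NCD or replicate 1 of HFHSD+CUR, 2 and 3 without replicates 2 and 3 of NCD and 1 without replicate 2 of HFHSD+CUR, and Pecam1 and Kdr lost theirs too (adjusted p = 0.17 and 0.11 without replicate 1 of NCD, 0.20 and 0.16 without replicate 1 of HFHSD+CUR, 0.15 and 0.13 without its replicate 2, 0.13 for Pecam1 without replicate 2 of NCD, and 0.13 for Kdr without its replicate 3). The 8 diet calls were 1 to 3 without any single NCD replicate 1 or 2 or HFHSD liver, and 13 without replicate 3 of HFHSD+CUR.

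Most calls between HFHSD+CUR and NCD fell outside the diet-changed set, 2766 of 3034. By definition none of the 2766 passed in HFHSD. There 490 of them reached an unadjusted p under 0.05, beside 1983 of all 10584 tested genes, diet-changed ones included. In 1896 of the 2766 the difference from NCD had the same sign in HFHSD. Many genes of the ER were among them. Of 31 tested chaperones and unfolded protein response genes, 2 rose and 20 fell in HFHSD+CUR against NCD, with a median of -0.75 on the log2 scale, and 0 rose and 2 fell in HFHSD (median -0.33). At an unadjusted p under 0.05, 9 of the 31 were lower in HFHSD and 0 higher. The list summed to 2977 to 4093 FPKM in NCD, 2476 to 3037 in HFHSD and 1893 to 2503 in HFHSD+CUR. Of the 20, 8 were also lower than in HFHSD. The 2 that rose were Ddit3 and Derl2. Hspa5 (BiP, the most abundant ER chaperone) had 400, 339 and 182 FPKM in NCD, 116, 143 and 141 in HFHSD and 101, 131 and 94.2 in HFHSD+CUR. It fell by 1.44 ± 0.36 (adjusted p = 0.023), and the older NCD liver was the lowest on chow. Hyou1, another ER chaperone, had 43.0, 36.9 and 19.4 FPKM in NCD and 10.1, 9.29 and 7.70 in HFHSD+CUR and fell by 1.79 ± 0.38 (adjusted p = 0.013), with the same chow liver lowest. The differences from HFHSD, -0.31 for Hspa5 and -0.44 for Hyou1, were smaller than those from NCD. Both passed against HFHSD with the replicate block and not without it (adjusted p = 0.097 and 0.059).

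Several ER genes separated HFHSD+CUR from both other groups. Dnajc3, a cochaperone and inhibitor of the kinase PERK, had 58.8, 41.7 and 43.9 FPKM in NCD, 35.9, 38.1 and 37.9 in HFHSD and 26.0, 26.5 and 18.7 in HFHSD+CUR. It fell by 1.02 ± 0.20 against NCD (adjusted p = 0.0059) and by 0.67 against HFHSD (adjusted p = 0.032), with no overlap. Atf6, a sensor of the unfolded protein response, had 10.7, 9.17 and 9.33 FPKM in NCD, 7.42, 8.73 and 9.27 in HFHSD and 5.13, 6.38 and 4.84 in HFHSD+CUR and fell by 0.83 ± 0.15 (adjusted p = 0.0050). Pdia4 and Pdia6, which form disulfide bonds in the ER, fell by 0.92 ± 0.18 (adjusted p = 0.0060) and 0.79 ± 0.17 (adjusted p = 0.0098). Pdia6 had 198, 166 and 160 FPKM in NCD and 119, 109 and 77.9 in HFHSD+CUR, and Pdia4 had 106, 82.5 and 78.9 and 52.5, 50.5 and 38.5. Canx, the lectin chaperone calnexin, fell by 0.72 ± 0.18 (adjusted p = 0.017), from 74.9, 57.5 and 70.8 FPKM to 48.6, 45.1 and 31.3. Replicate 3 was the lowest HFHSD+CUR liver for all of these genes. Of the 16 genes of this list that fell and had a promoter window, 7 held the ER stress element letters printed for Hspa5, Pdia6, Dnajc3 and Canx.

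The step after folding, export from the ER, went the same way. Of 40 tested genes of ER translocation and of the COPI and COPII vesicle coats, 0 rose and 25 fell in HFHSD+CUR against NCD (median -0.50), and 1 fell in HFHSD (median -0.23). At an unadjusted p under 0.05, 13 of the 40 were lower in HFHSD and 2 higher. The list summed to 1901 to 2309 FPKM in NCD, 1760 to 1790 in HFHSD and 1389 to 1641 in HFHSD+CUR. Of the 25, 13 were also lower than in HFHSD. Copb1, a COPI coat subunit, had 38.8, 31.9 and 30.5 FPKM in NCD, 26.5, 29.3 and 28.9 in HFHSD and 18.3, 20.9 and 14.8 in HFHSD+CUR, a fall of 0.91 ± 0.15 (adjusted p = 0.0038). Copa, another subunit, was nearly the same in the 3 curcumin livers, at 27.9, 27.7 and 27.9 FPKM against 53.04, 41.8 and 43.8 in NCD, and fell by 0.72 ± 0.12 (adjusted p = 0.0041). Copb2 fell by 0.95 ± 0.16 (adjusted p = 0.0041), from 63.0, 56.1 and 46.0 FPKM to 28.3, 34.1 and 23.5. All 3 also fell against HFHSD (adjusted p = 0.013 for Copb1, 0.028 for Copa and 0.016 for Copb2). Sec24d, a cargo-binding subunit of COPII, fell by 1.72 ± 0.38 (adjusted p = 0.015), from 28.6, 18.6 and 12.4 FPKM to 5.69, 7.65 and 4.06. Its difference of -0.87 from HFHSD passed with the replicate block (adjusted p = 0.022) and not without it (0.13).

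The 20 falls of the unfolded protein response list were 13 without replicate 1 of NCD or without replicate 3 of HFHSD+CUR, and the 25 of the export list were 14 without either. In HFHSD the 2 and 1 falls were 0 without replicates 1 or 2 of NCD or without any single HFHSD liver, and 10 and 12 without replicate 3 of NCD. With age as a covariate 14 and 18 genes of these lists were called lower in HFHSD.

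**Figure D5:**
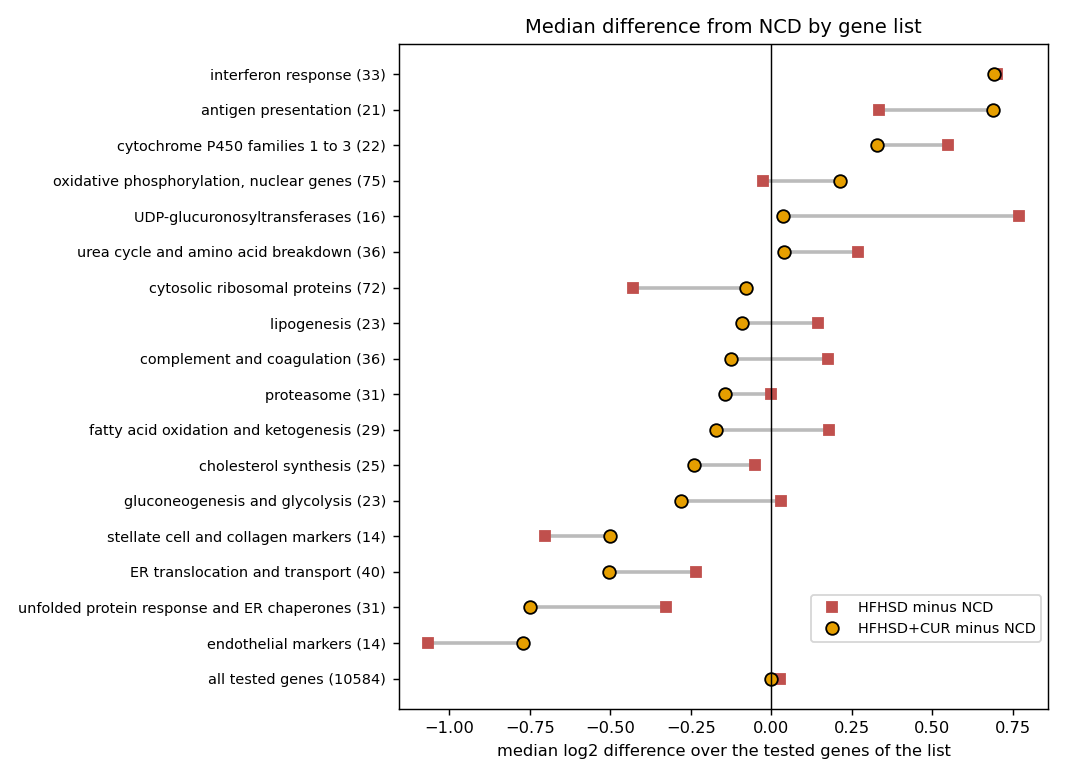
Median log2 difference from NCD over the tested genes of each list (number in brackets) in HFHSD (squares) and HFHSD+CUR (circles), on log2(FPKM + 0.1). Interferon genes stand at 0.70 and 0.69, UDP-glucuronosyltransferases at 0.77 and 0.04, and ER chaperones at -0.33 and -0.75.

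Among the genes with the largest falls were several that did not pass in HFHSD. Sntb1, a scaffold of membrane protein complexes, had 12.9, 5.21 and 9.53 FPKM in NCD, 6.91, 6.37 and 11.7 in HFHSD and 1.77, 1.58 and 1.10 in HFHSD+CUR, a fall of 2.49 ± 0.34 (adjusted p = 0.0033). Masp1 had 20.0, 7.25 and 20.1 FPKM in NCD, 12.3, 13.3 and 22.9 in HFHSD and 4.02, 4.57 and 4.13 in HFHSD+CUR and fell by 1.73 ± 0.36 (adjusted p = 0.011). Eif4ebp2, a repressor of cap-dependent translation, had 29.9, 14.7 and 37.6 FPKM in NCD and 8.50, 9.52 and 4.99 in HFHSD+CUR and fell by 1.77 ± 0.33 (adjusted p = 0.0078). For all 3, NCD replicate 2 was the lowest chow liver and still lay above every HFHSD+CUR liver, and each also fell against HFHSD (adjusted p = 0.0082, 0.012 and 0.011). Serpina3m, a secreted protease inhibitor of a family whose members may share reads, fell by 1.39 ± 0.22 (adjusted p = 0.0035), from 518, 337 and 360 FPKM to 176, 152 and 131. Its difference from HFHSD was -0.72 (adjusted p = 0.037).

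Cps1 (GRCm38.p6 chr1:67122426-67231267), the entry enzyme of the urea cycle, had 612, 441 and 600 FPKM in NCD, 453, 342 and 612 in HFHSD and 239, 173 and 202 in HFHSD+CUR. It was lower in every curcumin liver, by 1.43 ± 0.21 against NCD (adjusted p = 0.0033) and 1.17 against HFHSD (adjusted p = 0.0085). Gnmt, the main glycine methyltransferase of the liver, fell by 0.81 ± 0.15 (adjusted p = 0.0051), from 1855, 1842 and 1677 FPKM to 1254, 931 and 916. Pcx, pyruvate carboxylase, which feeds gluconeogenesis, fell by 0.67 ± 0.18 (adjusted p = 0.021), from 137, 106 and 139 FPKM to 83.0, 92.4 and 65.9. Ppp1r3c, a glycogen-targeting subunit of protein phosphatase 1, fell by 1.17 ± 0.27 (adjusted p = 0.015), from 11.1, 9.42 and 19.8 FPKM to 7.47, 5.46 and 4.31, and passed against HFHSD with the replicate block and not without it (adjusted p = 0.0174). Of the 23 tested genes of gluconeogenesis and glycolysis 1 rose and 7 fell (median -0.28), and 3 fell without replicates 1 or 3 of NCD or replicate 3 of HFHSD+CUR. Pcx lost its call when replicate 3 of NCD and of HFHSD+CUR were both left out (adjusted p = 0.16), as did Canx (0.104) and Psmd11 (0.11).

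Rises outside the diet-changed set included regulators. Neat1 (GRCm38.p6 chr19:5824708-5845480), the nuclear RNA that builds paraspeckles, had 156, 164 and 146 FPKM in NCD, 167, 99.3 and 120 in HFHSD and 438, 215 and 374 in HFHSD+CUR. Every curcumin liver lay above all others, and Neat1 rose by 1.08 ± 0.24 over NCD (adjusted p = 0.011) and 1.38 over HFHSD (adjusted p = 0.0082). Mlxipl (ChREBP), a sugar-sensing transcription factor, rose by 0.73 ± 0.14 (adjusted p = 0.0058), from 88.1, 70.5 and 77.2 FPKM to 118, 121 and 153. Nfe2l2 (NRF2), the main factor of the antioxidant response, had 27.6, 27.2 and 28.6 FPKM in NCD, 33.9, 37.0 and 32.0 in HFHSD and 37.6, 40.6 and 50.5 in HFHSD+CUR. Its groups were separate and it rose by 0.61 ± 0.13 over NCD (adjusted p = 0.0083), while its call against HFHSD (adjusted p = 0.095) did not pass with the replicate block (0.11). Of 29 tested genes of glutathione and NRF2, 6 rose and 0 fell in HFHSD+CUR, beside 14.1% higher among all tested genes, and against HFHSD 2 were higher and 3 lower. Against NCD 1 to 3 rose without replicate 1 of NCD or replicates 1 or 2 of HFHSD+CUR.

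Cebpb, a transcription factor of metabolism and the acute phase, rose by 1.13 ± 0.23 (adjusted p = 0.0078), from 34.3, 50.8 and 28.1 FPKM to 68.6, 67.8 and 111, and passed against HFHSD with the replicate block and not without it (adjusted p = 0.089). Per2, a repressor of the circadian clock, rose by 0.95 ± 0.16 (adjusted p = 0.0042), from 8.71, 6.97 and 7.63 FPKM to 13.7, 12.5 and 19.9. Replicate 3 was the highest of the curcumin livers for Cebpb and Per2, as it was for Ccrn4l and Cipc. The hour at which each liver was taken is not given in the sources used here.

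Nuclear genes of oxidative phosphorylation differed in both directions. Of 75 tested, 28 rose and 5 fell in HFHSD+CUR (median 0.21), and in HFHSD 0 passed in limma, with 0 also at an unadjusted p under 0.05. Ndufb4 and Ndufa3, small subunits of complex I, rose by 0.64 ± 0.13 (adjusted p = 0.0066) and 0.61 ± 0.14 (adjusted p = 0.014). Ndufb4 had 173, 228 and 193 FPKM in NCD and 290, 312 and 322 in HFHSD+CUR. Atp5b, the catalytic beta subunit of ATP synthase, went the other way and fell by 0.68 ± 0.13 (adjusted p = 0.0058), from 537, 494 and 581 FPKM to 353, 376 and 284. The 28 rises were 7 without replicate 1 of NCD, 16 without its replicate 3, 15 without replicate 3 of HFHSD+CUR and 5 without both replicates 3, and after removal of trends with GC content and length 14 rose and 8 fell (median 0.03). Of 31 proteasome subunits 1 rose and 9 fell, among them Psmd11, from 37.3, 32.9 and 36.7 FPKM to 25.9, 27.0 and 18.5 (adjusted p = 0.019). The 9 were 2 without replicate 1 of NCD or replicate 3 of HFHSD+CUR, and 5 without replicate 3 of NCD.

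Lists of fat, cholesterol and insulin handling are read beside the shares over all tested genes, 14.1% higher and 14.5% lower against NCD. Of 23 lipogenic genes 3 rose and 0 fell in HFHSD+CUR against NCD, of 25 genes of cholesterol synthesis 0 rose and 3 fell, of 29 of fatty acid oxidation and ketogenesis 4 rose and 5 fell, of 18 of bile acid handling 3 rose and 0 fell, and of 27 of insulin signalling 1 rose and 3 fell. In limma 0 genes of these 5 lists were diet-changed, and 1, 1, 3, 5 and 1 of them reached an unadjusted p under 0.05 in HFHSD. Against HFHSD 8 of the 29 genes of fatty acid oxidation and ketogenesis and 8 of the 27 of insulin signalling were lower in HFHSD+CUR, 1 of each was higher, and 17.1% of all tested genes were lower. Fasn, the fatty acid synthase, had 39.6, 53.8 and 135 FPKM in NCD and 52.4, 37.4 and 37.3 in HFHSD+CUR, and Scd1, the stearoyl-CoA desaturase, had 1107, 1916 and 2721 and 1250, 1328 and 1124. The chow livers spread widely, the older one highest for both, and the differences of -0.66 ± 0.51 and -0.54 ± 0.30 did not pass (adjusted p = 0.39 and 0.22). Scd1 passed without replicate 1 of NCD, at -0.89.

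Fitm1, a lipid droplet protein, rose by 0.95 ± 0.24 (adjusted p = 0.018), from 41.1, 59.3 and 49.98 FPKM to 85.7, 114 and 90.3, and passed against HFHSD with the replicate block and not without it (adjusted p = 0.06). Cyp7a1, the rate-limiting enzyme of bile acid synthesis, had 16.7, 4.83 and 58.4 FPKM in NCD, 53.3, 61.2 and 70.6 in HFHSD and 37.3, 58.6 and 54.2 in HFHSD+CUR. The older chow liver stood with the rich diets, the difference of 1.54 ± 0.91 did not pass (adjusted p = 0.27), and it passed with age as a covariate, at 2.34 (adjusted p = 0.015), and without the older liver, at 2.44. Its difference of -0.32 from HFHSD passed with the replicate block (adjusted p = 0.0854) and not without it (0.83). Ide, the insulin-degrading enzyme, had 29.4, 18.8 and 21.7 FPKM in NCD, 26.5, 29.9 and 28.7 in HFHSD and 24.1, 24.5 and 20.6 in HFHSD+CUR. It differed by 0.01 ± 0.18 from NCD (adjusted p = 0.98), and its difference of -0.30 from HFHSD passed with the replicate block and not without it (adjusted p = 0.082). Insr, the insulin receptor, had 14.4, 12.8 and 17.1 FPKM in NCD and 15.1, 14.5 and 16.0 in HFHSD+CUR, overlapping throughout.

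For the 44 diet-changed genes with values given here, the call between HFHSD and NCD that put them on the scale was kept by 12 without replicate 1 of NCD, by 13 without its replicate 2, by 25, 20 and 29 without replicates 1, 2 and 3 of HFHSD, and by all 44 without replicate 3 of NCD.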

How the data were processed

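Liver poly(A) RNA of 12 libraries was sequenced as stranded paired reads, and the authors aligned reads to mm10 with TopHat2 2.0.13 and estimated gene FPKM with Cuffdiff 2.2.1 (versions from the submitters' notes). The deposited FPKM values, normalized by the authors for length and depth, hold no read counts. The authors' own comparison columns and files (fold changes, p-values, gene ontology and pathway results) were not used. Values were tested as log2(FPKM + 0.1), which understates changes of low genes, with limma 3.58.1 (R 4.3.3, data.table version 1.17.8) in a model of 4 groups over 12 libraries with intensity trend and robust variances, Benjamini-Hochberg adjustment over 10584 genes and a threshold of 0.1; ± is the standard error. The labels do not say what a replicate number stands for, so p-values measure the spread between these samples. Same-numbered libraries of HFHSD and HFHSD+CUR deviated together (correlations 0.16, 0.36 and 0.18), the only source of that pairing, and those of NCD and HFHSD+CUR did not (-0.13, -0.03 and -0.14). For NCD and HFHSD the values were 0.0017, 0.047 and 0.24, the last for replicate 3. Blocked values are printed where they change a call. Members and lists were chosen with earlier results of these data known. Named genes were the 10 largest called rises and falls averaging 5 FPKM or more without overlapping groups, up to 6 per class by smallest diet p, up to 3 per list by smallest p, and Fasn, Scd1, Pck1, G6pc, Cyp7a1, Insr, Irs2, Igf1, Ide, Fgf21, Cidec, Neat1 and Rn45s, of which those described were taken. Oas1a, Irf7, Isg15, H2-K1, B2m, Stab1, Hspa5, Pdia6, Sec24d, Canx, Cuedc1, Ddit3, Derl2, Gbp2, Irf8, Ifih1, Irgm2 and the 4 genes named only as differing from HFHSD away from chow were chosen after their values were seen. Of the tested genes 10546 matched RefSeq. A few named genes are not reported here. Scripts were tested on simulated data. Alternatives were replicate blocks, age or mapped reads (from the study's supplement) as a covariate, array weights, removal of GC and length trends (lengths known for 10110 genes), other filters and thresholds, and leaving out each library.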

Additional observations from a re-analysis of the deposited data

How the results depend on the processing

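The count of 3034 genes between HFHSD+CUR and NCD was 5012 with array weights, 1717 with only the compared groups in the fit, 1949 at an adjusted p under 0.05, and 1324 to 3279 without single libraries. The 499 of HFHSD against NCD were 2047 with age as a covariate, 3370 with array weights, 274 with only the compared groups, 185 at 0.05 and 55 to 1754 without single libraries. The 3229 between HFHSD+CUR and HFHSD were 2150 at a minimum mean of 5 FPKM, 2022 at 0.05 and 1237 to 3526 without single libraries. Leaving out replicate 3 of NCD and of HFHSD+CUR together, chosen after seeing the data, gave 1736, 2155 and 1708. With a replicate block over all groups the counts were 3392, 880 and 3549, and 908 diet calls with GC and length trends also removed. Same-numbered libraries of NCD and HFHSD+CUR did not deviate together, while those of NCD and HFHSD correlated at 0.0017, 0.047 and 0.24. The block within the rich diet, added after seeing the data, gave 4307 calls against HFHSD.

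The returned share was 11.3% with only the compared groups, 11.4% at 0.05 and 1.82% to 23% without single libraries, and the remained share was 24.6% to 47.3%. The share further was 13.4% with the block, 14.6% with the block and GC and length removed, 14.6% with age, 22.3% with array weights, 15.6% for diet genes at an unadjusted p under 0.05, and 5.41% to 11.9% without single libraries. The cause was not tested. Ide reversed to -0.0871 with age, -0.23 with weights and lay between -0.14 and 0.19 without single libraries (-0.14 without replicate 2 and -0.03 without replicate 3 of NCD, -0.03 and -0.04 without replicates 1 and 2 of HFHSD+CUR), Insr to -0.047 without replicate 2 of NCD (up to 0.16 without its replicate 3), and Scd1 to 0.0011 with weights. None of these 3 passed as reported. Over the 85 genes with values, 3494 alternative values kept direction and side of the threshold, 188 no longer passed, 4 newly passed and 8 reversed. FPKM holds no counts, so counting error at low values was not computed. The share called against HFHSD towards NCD was 20.4% with only the compared groups and 17.3% at 0.05, and the share beyond NCD ran from 0% at 0.05 to 12% for diet genes at an unadjusted p under 0.05.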
